A study of Mus musculus with 20 samples.

Results

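The genes described here control blood clotting and the dissolution of clots. They comprise the initiator F3, the clotting protease F7, the inhibitor Tfpi, the anticoagulant receptors Thbd and Procr, the plasminogen activators Plau and Plat, and Plaur, the receptor of Plau. The list of 9 genes was chosen by function, with F7 put forward because it was among the clear rises with diet in these same mice. The HFD against NC values below are therefore what selected the list. They are given as a description, with no p for a member, and nothing is read from how many members passed a threshold in that contrast. Of the 9 genes, 8 were found among the 14776 genes of the deposited table, and F10 was not analysed here.

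Clotting starts when factor VII from plasma meets tissue factor, the product of F3, on a cell surface, and this complex activates factor X and, further on, thrombin. Tfpi blocks the complex, thrombomodulin (Thbd) turns thrombin towards activation of protein C, and the endothelial protein C receptor (Procr) presents protein C for that step. In fibrinolysis, urokinase (Plau) and tissue plasminogen activator (Plat) turn plasminogen into plasmin, and Plaur holds urokinase at the cell surface. Factor VII in plasma is known mainly as a liver product, whereas F3 and Plaur are expressed by many tissue cells, among them macrophages and adipocytes.

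Gene expression was measured by RNA sequencing in white adipose tissue dissected from beside the epididymis (eWAT), from male mice of the C57BL/6J strain that entered the study at 6 weeks of age. The 6 NC mice received normal chow. The 7 HFD mice received a high-fat diet for 14 weeks and then the diet with saline into the stomach for 6 weeks, and the 7 SZ-A mice received the same diet and, in those last 6 weeks, Ramulus Mori (Sangzhi) alkaloids, an extract of mulberry twig, in place of saline. No group carried an altered gene, and whole tissue was sampled, so fewer cells of a type and less RNA per cell cannot be told apart in any level below. Values are FPKM, fragments scaled to exon length and library size, which allow levels to be compared between genes. Differences between groups are on the log2(FPKM + 1) scale and understate the change of genes near 0.

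Each mouse had between 13567667 and 19388628 reads on the deposited genes. NC mouse 6 stood apart. Its 9 adipocyte markers summed to 477 FPKM, against 9110 to 21971 in the other 5 NC mice, and Adgrg2, a gene of the epididymal duct, was at 420 FPKM, against 5.69 to 30.0. SZ-A mouse 2 had Adgrg2 at 103 FPKM, against 0.789 to 1.75 in HFD mice. The differences of the members from NC are given with and without NC mouse 6, in which 6 of the 8 genes had their lowest level among the NC mice and F7 and Plat did not.

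Promoter sequences are shown for the initiator F3, for F7 and for Plaur. F7 and Plaur deviated together across mice, as described below. F3 did so less, with r of -0.14 to F7 and 0.43 to Plaur, or -0.31 and 0.06 without NC mouse 6. Each run is the 250 bases before the RefSeq start in GRCm38.p6, on the plus strand, at chr3:121723287-121723536, chr8:13025784-13026033 and chr7:24462233-24462482. Capitals mark TGANTCA, the AP-1 motif, and GAGGAA, the core of the PU.1 motif, on either strand, where the reverse of the latter reads TTCCTC. No match overlapped another.
F3: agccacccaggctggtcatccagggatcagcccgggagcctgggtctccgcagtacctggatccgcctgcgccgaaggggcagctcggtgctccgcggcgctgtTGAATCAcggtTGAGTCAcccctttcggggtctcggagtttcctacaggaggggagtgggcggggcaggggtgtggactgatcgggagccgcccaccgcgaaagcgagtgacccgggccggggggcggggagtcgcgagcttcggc
F7: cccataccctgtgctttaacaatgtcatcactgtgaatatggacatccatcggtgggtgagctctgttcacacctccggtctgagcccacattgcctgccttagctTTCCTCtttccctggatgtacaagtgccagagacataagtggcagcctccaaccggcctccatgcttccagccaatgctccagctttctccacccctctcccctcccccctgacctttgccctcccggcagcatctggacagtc
Plaur: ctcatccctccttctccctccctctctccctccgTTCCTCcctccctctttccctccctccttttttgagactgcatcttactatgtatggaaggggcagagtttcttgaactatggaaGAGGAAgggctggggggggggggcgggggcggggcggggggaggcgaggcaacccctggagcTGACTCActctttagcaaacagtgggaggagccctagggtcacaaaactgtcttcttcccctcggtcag
The F3 window held 2 AP-1 matches and 0 of GAGGAA, the F7 window 1 match of GAGGAA and 0 of AP-1, and the Plaur window 1 AP-1 match and 2 of GAGGAA. The Procr window, not printed, held 1 AP-1 match and 0 of GAGGAA, and Procr deviated with Plaur more closely than F7 did (r = 0.91). Tfpi had a window with 1 match of GAGGAA and another with 0, and 0 of AP-1 in either. Whether matches go with joint deviation was not tested. Among 32851 RefSeq windows of the same length, 6.75% held the AP-1 letters, 23.3% held GAGGAA on either strand and 1.55% held both, so the F7 match is a common one. These are matches of letters, and no binding was measured.

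F7 (ENSMUSG00000031443, GRCm38 chromosome 8, 13026034 to 13035809, plus strand) encodes coagulation factor VII. In NC mice it ranged from 0.0333 to 1.27 FPKM, with a median of 0.293, on 1 to 45 reads per mouse. In HFD mice it ranged from 26.1 to 53.0 FPKM, with a median of 35.4, on 861 to 1728 reads. The groups did not overlap, and the ratio of medians was 121, or 80.2 without NC mouse 6. The difference was 4.77 (SE 0.22) on the log2(FPKM + 1) scale, 4.70 without NC mouse 6, and 6.92 (SE 0.56) by voom on the recovered reads, which adds less to the low NC values. F7 thereby went from the lowest median of the 8 genes in NC (rank 8) to rank 2 in HFD mice, below Plau and next to Thbd.

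With SZ-A, F7 ranged from 9.97 to 129 FPKM, with a median of 15.2. In 5 of the 7 SZ-A mice, at 9.97 to 17.9 FPKM, F7 was below every HFD mouse, in SZ-A mouse 6 it was inside the HFD range at 48.7 FPKM, and in SZ-A mouse 5 it was above every HFD mouse at 129 FPKM. The group difference from HFD of -0.76 (SE 0.48, 95% interval -1.77 to 0.25) did not pass the test (limma, adjusted p = 0.256). Without SZ-A mouse 5 the difference was -1.18 and passed it (adjusted p = 0.0132), and over all alternatives the adjusted p ranged from 0.00168 to 0.405. The means of SZ-A and HFD, 34.7 ± 43.9 and 38.5 ± 10.96 FPKM (SD, n = 7 each), do not show this split. SZ-A mice remained above NC mice without overlap, with a difference of 4.01 (SE 0.52, limma adjusted p = 0.000867) and of 3.94 without NC mouse 6 (adjusted p = 0.00179). The NC values of F7 are among those that put it forward, so this contrast is no independent test of F7.

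**Figure D1:**
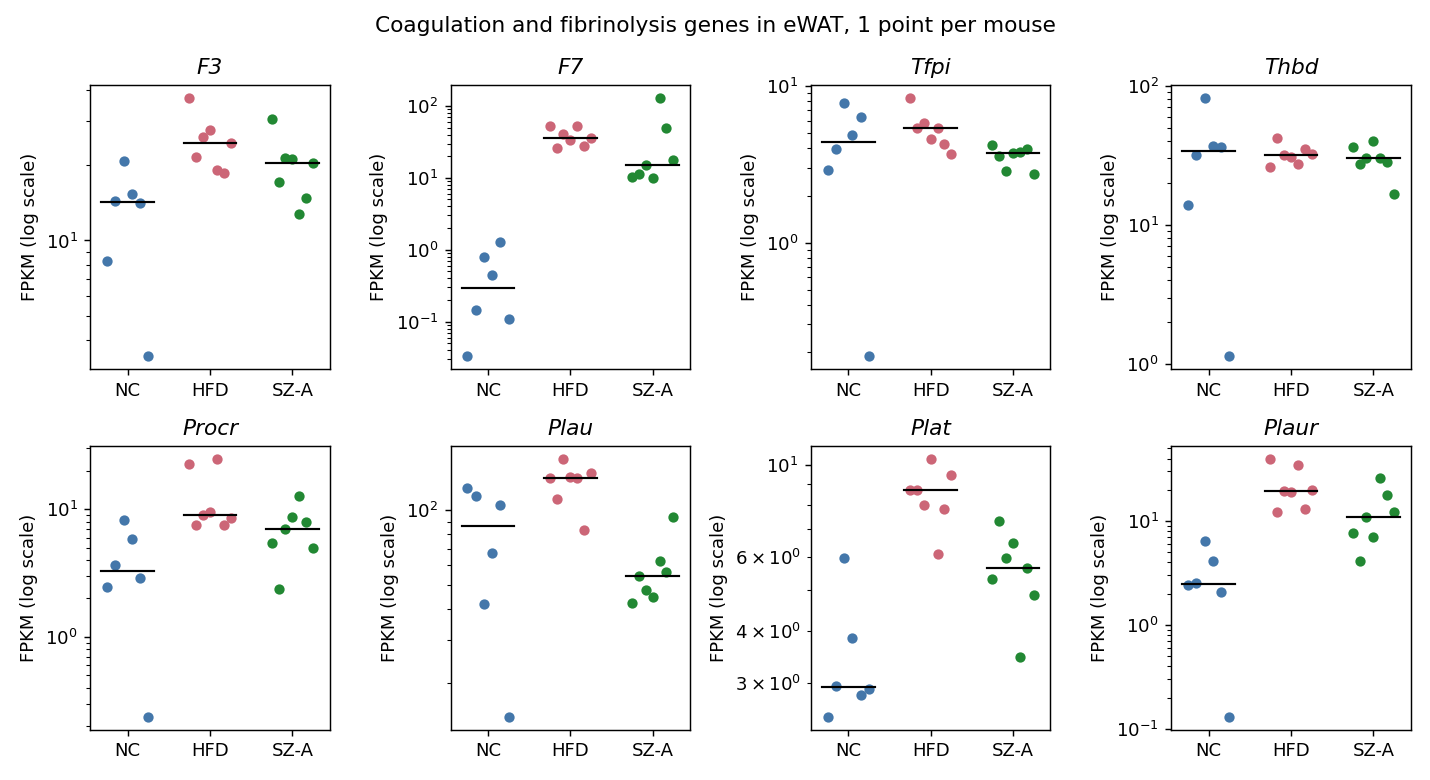
FPKM of the 8 genes in each of 20 mice by group, on log scales that differ between panels, with the median as a black line and the mice of a group in label order from left to right. F7 separates the 6 NC mice, at or below 1.27 FPKM, from all mice on the diet, Plau is lower in SZ-A (median 54.3) than in HFD mice (median 135), and the lowest NC point for Tfpi, Thbd, Procr and Plaur is NC mouse 6.

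F3 (ENSMUSG00000028128, chromosome 3, 121723537 to 121735048, plus strand) encodes tissue factor, the receptor and cofactor of factor VII. Its level ranged from 3.45 to 20.8 FPKM in NC mice, with a median of 14.3, and from 18.5 to 37.2 FPKM in HFD mice, with a median of 24.7. The groups overlapped, with 5 of 7 HFD mice above every NC mouse, and the difference was 1.04 (SE 0.31), or 0.75 without NC mouse 6. SZ-A mice ranged from 12.7 to 30.6 FPKM, with a median of 20.4, and 3 of 7 were below every HFD mouse. The SZ-A difference from HFD was -0.33 (SE 0.19, 95% interval -0.73 to 0.06, limma adjusted p = 0.200) and did not pass the test. Against NC the SZ-A difference was 0.71 (SE 0.32, adjusted p = 0.250), or 0.42 without NC mouse 6 (adjusted p = 0.367).

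Tfpi (ENSMUSG00000027082, chromosome 2, 84432855 to 84476775, minus strand) encodes the inhibitor of the F3 and F7 complex. It ranged from 0.188 to 7.81 FPKM in NC mice, with a median of 4.43, and from 3.70 to 8.42 FPKM in HFD mice, with a median of 5.40. The difference between HFD and NC was 0.45 and came to 0.07 without NC mouse 6. In SZ-A mice Tfpi ranged from 2.75 to 4.19 FPKM, with a median of 3.77, and 3 of 7 mice were below every HFD mouse. Tfpi fell with SZ-A against HFD by 0.46 on the log2 scale (SE 0.14, limma adjusted p = 0.0288), a call that was lost without HFD mouse 3 or 5, without SZ-A mouse 3 or 7, and with all 3 groups in the fit, where the adjusted p was 0.320 (range over alternatives 0.0178 to 0.320). Against NC it was at -0.01 (SE 0.36, adjusted p = 0.994), or -0.39 without NC mouse 6 (adjusted p = 0.290). The ratio of F3 to Tfpi within a mouse, chosen after the values were seen, had medians of 3.002 (NC, or 2.85 without NC mouse 6), 4.42 (HFD) and 5.63 (SZ-A), with ranges that overlapped between all groups.

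Thbd (ENSMUSG00000074743, chromosome 2, 148404466 to 148408188, minus strand) is a marker of endothelium. It ranged from 1.14 to 81.8 FPKM in NC mice, with a median of 33.9, from 26.1 to 42.4 in HFD mice, with a median of 31.7, and from 16.6 to 39.9 in SZ-A mice, with a median of 30.0. The HFD range lay inside the NC range, and the difference between them changed sign, from 0.56 with all NC mice to -0.11 without NC mouse 6. For SZ-A against HFD the interval of the difference was -0.48 to 0.22 (limma adjusted p = 0.584). SZ-A against NC gave 0.43 (adjusted p = 0.753), or -0.24 without NC mouse 6 (adjusted p = 0.761).

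Procr (ENSMUSG00000027611, chromosome 2, 155751117 to 155755471, plus strand) was at 0.237 to 8.28 FPKM in NC mice, with a median of 3.26, and at 7.48 to 24.99 FPKM in HFD mice, with a median of 9.02. HFD mice 1 and 5, at 22.6 and 24.99 FPKM, were far above the other HFD mice, and the difference from NC was 1.59 (SE 0.43), or 1.24 without NC mouse 6. In SZ-A mice Procr ranged from 2.35 to 12.8 FPKM, with a median of 7.07, and 4 of 7 were below every HFD mouse. The SZ-A difference from HFD of -0.73 (SE 0.33, 95% interval -1.43 to -0.04) did not pass the test after adjustment over all genes (limma, adjusted p = 0.113). Against NC it was 0.85 (SE 0.42, adjusted p = 0.290), or 0.50 without NC mouse 6 (adjusted p = 0.460).

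Plau (ENSMUSG00000021822, chromosome 14, 20836660 to 20843385, plus strand), which encodes urokinase, had the highest median of the 8 genes in each group. It ranged from 14.7 to 123 FPKM in NC mice, with a median of 86.2, from 83.1 to 162 in HFD mice, with a median of 135, and from 42.4 to 93.8 in SZ-A mice, with a median of 54.3. In SZ-A, 6 of 7 mice were below every HFD mouse, and the exception was SZ-A mouse 7 at 93.8 FPKM. The HFD and NC mice differed by 0.99 (SE 0.41), or by 0.59 without NC mouse 6. Plau fell with SZ-A by 1.18 on the log2 scale (SE 0.18, 95% interval -1.56 to -0.79, limma adjusted p = 0.000897), and the call held under each of the alternatives run, with adjusted p from 1.64e-05 to 0.0288, except a log2 fold change above 1.5. SZ-A against NC gave -0.18 (SE 0.42, adjusted p = 0.844), or -0.59 without NC mouse 6 (adjusted p = 0.272), so that the SZ-A and NC mice were not separated.

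Plat (ENSMUSG00000031538, chromosome 8, 22757727 to 22782844, plus strand), the other plasminogen activator, was far below Plau, at 2.48 to 5.98 FPKM in NC mice (median 2.92). In HFD mice it was at 6.10 to 10.4 FPKM (median 8.68), just above the NC range, and in SZ-A mice at 3.46 to 7.33 FPKM (median 5.67), with 5 of 7 below every HFD mouse. Plat fell with SZ-A against HFD by 0.53 on the log2 scale (SE 0.14, limma adjusted p = 0.0133). Against NC the difference was 0.57 (SE 0.19, adjusted p = 0.104), or 0.54 without NC mouse 6 (adjusted p = 0.146). Plat was the member least touched by NC mouse 6, with a HFD against NC difference of 1.10, or 1.07 without that mouse.

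Plaur (ENSMUSG00000046223, chromosome 7, 24462484 to 24475968, plus strand) encodes the urokinase receptor. It ranged from 0.131 to 6.45 FPKM in NC mice, with a median of 2.46, and from 12.2 to 39.9 FPKM in HFD mice, with a median of 19.5. These groups did not overlap, the ratio of medians was 7.92, and the difference was 2.67 (SE 0.39), or 2.35 without NC mouse 6. In SZ-A mice it ranged from 4.11 to 26.2 FPKM, with a median of 10.9, and SZ-A mice 5 and 6, at 26.2 and 17.7 FPKM, were the highest, as they were for F7. The difference from HFD of -0.91 (SE 0.35, 95% interval -1.64 to -0.17) did not pass the test (limma, adjusted p = 0.0721) and did without SZ-A mouse 5, at -1.11 (adjusted p = 0.0182, range over alternatives 0.00300 to 0.145). Plaur stayed above NC in SZ-A mice by 1.76 (SE 0.44, adjusted p = 0.0332), or by 1.45 without NC mouse 6 (adjusted p = 0.0394), a call lost in 11 of 23 alternatives.

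**Figure D2:**
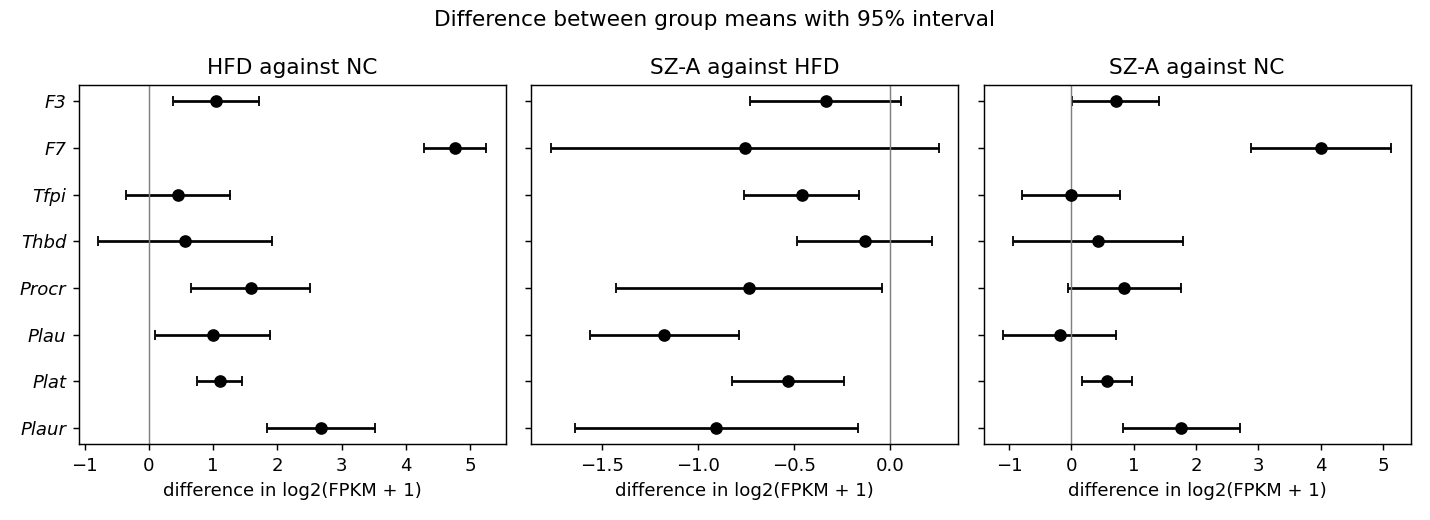
Differences between group means of log2(FPKM + 1) for the 8 genes, with 95% intervals, for HFD against NC, SZ-A against HFD and SZ-A against NC. Against HFD, SZ-A is lower for Plau (-1.18), Plat (-0.53) and Tfpi (-0.46), and the interval of F7 is the widest of that panel.

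HFD against NC is the contrast that selected the list, so the next counts describe the choice and are no test of it. At an adjusted p under 0.05, the threshold used for the other contrasts, lay 5 of the 8 genes, F7, F3, Procr, Plat and Plaur, all higher, beside 21.0% of the 14706 genes tested, or 22.6% without NC mouse 6. With a log2 fold change above 1.5 as well these were F7, Procr and Plaur, beside 5.43% of genes. Without overlap were F7, Plat and Plaur, beside 12.7% of genes with every HFD mouse above every NC mouse, or 14.9% without NC mouse 6. For SZ-A against HFD, which shares the HFD mice with the first contrast, 3 of 8 were called lower, beside 13.3% of 14695 genes, and 0 were called higher, beside 9.47%. A log2 fold change above 1.5 as well left 0 of the 8, beside 0.558% of genes, and 0 of the 8 separated the SZ-A mice, all lower, from the HFD mice, beside 4.01%. The median difference of the 8 genes was -0.63, against 0.03 over all genes tested. For SZ-A against NC, which shares mice with both other contrasts, F7 and Plaur were called higher, beside 4.15% of 14718 genes, or 4.63% without NC mouse 6. The NC values of that contrast also served to put F7 forward.

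The genes that moved with a member were sought in the deviations of each mouse from its group mean, over 20 mice and the 12450 genes whose mean reached 1 FPKM. These mice share a tissue and a library type, and the correlations are descriptions. For F7 the 5 most alike were Slamf8 (r = 0.96), Stk11ip (0.95), Bcl2a1b (0.95), Aph1c (0.95) and A630001G21Rik (0.95), and reads of Bcl2a1b can be shared with its near-identical copies. Slamf8 encodes a receptor of the SLAM family found on myeloid cells. Without NC mouse 6 the 5 were Aph1c, Ncf4, Lrmp, Ahnak2 and Slamf8. Plaur was most like Fxyd5 (r = 0.97) and Slc11a1 (0.95), the latter a metal transporter of macrophage phagosomes.

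Procr was most like Ninj1 (r = 0.93) and Hmox1 (0.93), which encodes heme oxygenase-1. Thbd was most like Celf2 (0.98) and Slc43a3 (0.98), Tfpi like Chsy1 (0.98) and the macrophage mannose receptor Mrc1 (0.96), and F3 like Rab12 (0.90) and Vtn (0.89). Plau was most like Dact3 (0.88) and Phactr1 (0.87), and Plat like Asap2 (0.82) and Enpp3 (0.82). For Plau these values rest in part on NC mouse 6, since r for Dact3 was 0.76 without it and other genes ranked first. Among the members, Plaur and Procr deviated together (r = 0.91, or 0.86 without NC mouse 6), as did F7 and Plaur (0.71, or 0.78). F7 and F3 did not (-0.14, or -0.31). Plau and Thbd had r = 0.44 with NC mouse 6 and -0.81 without it, a sign that turned on a single mouse.

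Macrophage markers moved with several of these genes. All 12 listed were in the table, and 11 were called higher in HFD than NC and 10 lower in SZ-A than HFD. Their summed level was 81.4 to 805 FPKM (NC, or from 291 FPKM without NC mouse 6), 3333 to 9024 FPKM (HFD) and 1375 to 4536 FPKM (SZ-A). SZ-A mice 5 and 6, the highest for F7 and Plaur, had the highest macrophage sums of their group, at 4536 and 3439 FPKM. The part of macrophage content in the levels of F7, Plaur and the other members was not tested. F7 was set against Adgre1, which encodes the macrophage protein F4/80, in a ratio chosen after the values were seen. This ratio was 0.113 to 0.225 in HFD mice and 0.231 to 1.74 in SZ-A mice, so that every SZ-A mouse was higher. In NC mice it was 0.0157 to 0.180, or up to 0.126 without NC mouse 6. Adgre1 is only 1 of the 12 markers, and the separation did not extend to their sum. F7 was at 27.6 FPKM beside a sum of 3333 FPKM in HFD mouse 6. In SZ-A mouse 4 it was at 9.97 FPKM beside 1480 FPKM, which is less F7 for the same sum. The Plaur to Adgre1 ratio overlapped between HFD and SZ-A, at 0.0527 to 0.170 and 0.0848 to 0.353, and in NC mice, with or without NC mouse 6, it was 0.205 to 1.14, above every HFD mouse.

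**Figure D3:**
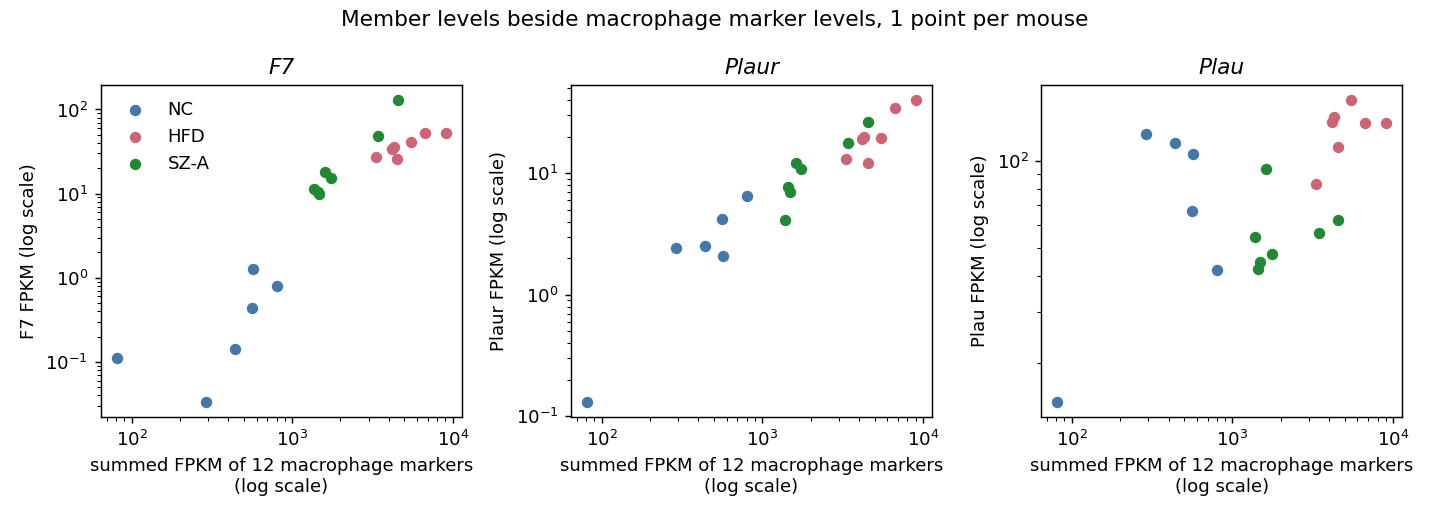
FPKM of F7, Plaur and Plau in each mouse against the summed FPKM of 12 macrophage markers, both on log scales, 1 point per mouse coloured by group. For F7 and Plaur the 2 SZ-A mice with the highest macrophage sums, 3439 and 4536 FPKM, are the highest of their group, and for Plau the NC mice reach 123 FPKM, at a macrophage sum of 291 FPKM.

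Other cell type markers moved too. Fibroblast and progenitor markers, all 8 in the table, summed to 65.8 to 575 FPKM (NC, or from 160.0 FPKM without NC mouse 6), 895 to 1374 FPKM (HFD) and 234 to 560 FPKM (SZ-A). Of these markers, 7 were called lower in SZ-A than HFD. The 10 endothelial markers had 0 calls between HFD and NC and 2 higher with SZ-A, and they summed to 21.7 to 610 FPKM (NC, or from 237 FPKM without NC mouse 6), 110 to 475 FPKM (HFD) and 229 to 921 FPKM (SZ-A). Platelet markers had 3 of 8 in the table, of which 2 were called higher and 1 lower in HFD than NC. Pf4, the most abundant, was at 2.19 to 74.4 FPKM in NC and 86.0 to 182 FPKM in HFD mice. Itga2b went the other way, at 0.765 to 8.70 FPKM in NC and 0.543 to 1.12 FPKM in HFD mice. Of 9 liver markers, 0 were among the genes of the table. Every gene of the table was above 0 in each mouse, so this absence does not show that liver RNA was absent. Red blood cell markers, all 5 in the table, were called higher in SZ-A than HFD and summed to 9439 FPKM in SZ-A mouse 5, the mouse with the highest F7, against a group median of 921 FPKM, and mitochondrial genes took 11.6% of its reads. The part of these cell types and of blood in the results was not tested.

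A wider list of 50 coagulation and fibrinolysis genes, which holds no member, had 26 genes in the table. In HFD against NC, 15 were called higher, beside 21.0% of all genes, and 2 lower, beside 20.1%, with a median difference of 0.83 against -0.04 over all genes tested. Without NC mouse 6 the numbers were 16 and 2, and the median was 0.59. In SZ-A against HFD, 0 were called higher, beside 9.47% of all genes, and 9 lower, beside 13.3%, with a median of -0.13. With all 3 groups in the fit 2 were called lower, a setting for which the share of all genes was not taken. In SZ-A against NC 4 were called higher, namely Anxa2, Eno1, Tfpi2 and Serpinb8, beside 4.15% of all genes. Without NC mouse 6 these were 3, beside 4.63%, since Serpinb8 no longer passed (limma adjusted p = 0.0649).

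Anticoagulants and inhibitors had 6 of 12 listed genes in the table. All 6 were called higher in HFD than NC, beside 21.0% of all genes. With SZ-A, 5 of them were called lower than in HFD, beside 13.3%. Pros1, which encodes protein S, the cofactor of activated protein C, was at 3.58 to 35.7 FPKM (NC), 41.0 to 68.3 FPKM (HFD) and 25.4 to 40.1 FPKM (SZ-A), so that the HFD mice overlapped with neither of the others. It differed by 1.78 (SE 0.37) between HFD and NC, or 1.43 without NC mouse 6, and fell by 0.63 on the log2 scale (SE 0.12, limma adjusted p = 0.00317) with SZ-A. Entpd1, an ectonucleotidase that degrades the platelet agonist ADP, differed by 1.51 with diet, or 1.18 without NC mouse 6, and fell by 0.73 with SZ-A (adjusted p = 0.00403). Gas6, a relative of protein S and ligand of the TAM receptors, differed by 1.39, or 1.013 without NC mouse 6, and fell by 0.62 (adjusted p = 0.0205), and Serpine2, protease nexin-1, fell by 0.43 with SZ-A (adjusted p = 0.0380). Tfpi2 behaved otherwise, at 0.118 to 1.74 FPKM (NC), 4.73 to 6.39 FPKM (HFD) and 2.22 to 6.83 FPKM (SZ-A). Its difference from HFD in SZ-A mice was -0.13 (95% interval -0.48 to 0.23, adjusted p = 0.603), and it remained above NC by 1.67 (adjusted p = 0.00199), or by 1.53 without NC mouse 6 (adjusted p = 0.00290).

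Fibrinolysis and plasminogen binding had 8 of 14 listed genes in the table. Of these, 6 were called higher in HFD than NC, beside 21.0% of all genes, and 2 lower in SZ-A than HFD, beside 13.3%. Lrp1, the endocytic receptor that clears complexes of activator and inhibitor, was at 1.80 to 59.6 FPKM (NC), 108 to 164 FPKM (HFD) and 40.2 to 102 FPKM (SZ-A). It fell with SZ-A by 1.08 on the log2 scale (SE 0.18, limma adjusted p = 0.00116), the largest difference of the 26 genes in that comparison and in HFD against NC (2.78, SE 0.53, or 2.23 without NC mouse 6). Anxa2, a plasminogen-binding annexin, differed by 1.60 with diet, with or without NC mouse 6, and by -0.44 between SZ-A and HFD (adjusted p = 0.0807). Serpinb8, a serpin, differed by 1.62 with diet, or 1.49 without NC mouse 6, and fell by 0.68 with SZ-A (adjusted p = 0.0114).

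Clotting factors and cofactors had 5 of 15 listed genes in the table. Kng2, a kininogen, differed by 0.75 with diet and fell by 0.74 with SZ-A (limma adjusted p = 0.0130), at 0.204 to 0.560 FPKM (NC), 0.656 to 4.11 FPKM (HFD) and 0.287 to 0.640 FPKM (SZ-A). F5, the cofactor of factor X, was called lower in HFD than NC at -0.67 (SE 0.14) and was not called with SZ-A (0.34, adjusted p = 0.163). The thrombin receptor F2r differed by 1.31 with diet, or 1.03 without NC mouse 6, and fell by 0.76 with SZ-A (adjusted p = 0.0222), and the trypsin- and F7-responsive receptor F2rl1 was called lower in HFD than NC at -1.61 (SE 0.34), or -1.70 without NC mouse 6, and was not called with SZ-A (0.30, adjusted p = 0.530). Of the 5 genes of the vitamin K cycle and of factor transport, Ggcx, the carboxylase that F7 and its relatives need, was called higher in HFD than NC at 0.60 (SE 0.13), and 0 were called with SZ-A.

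**Figure D4:**
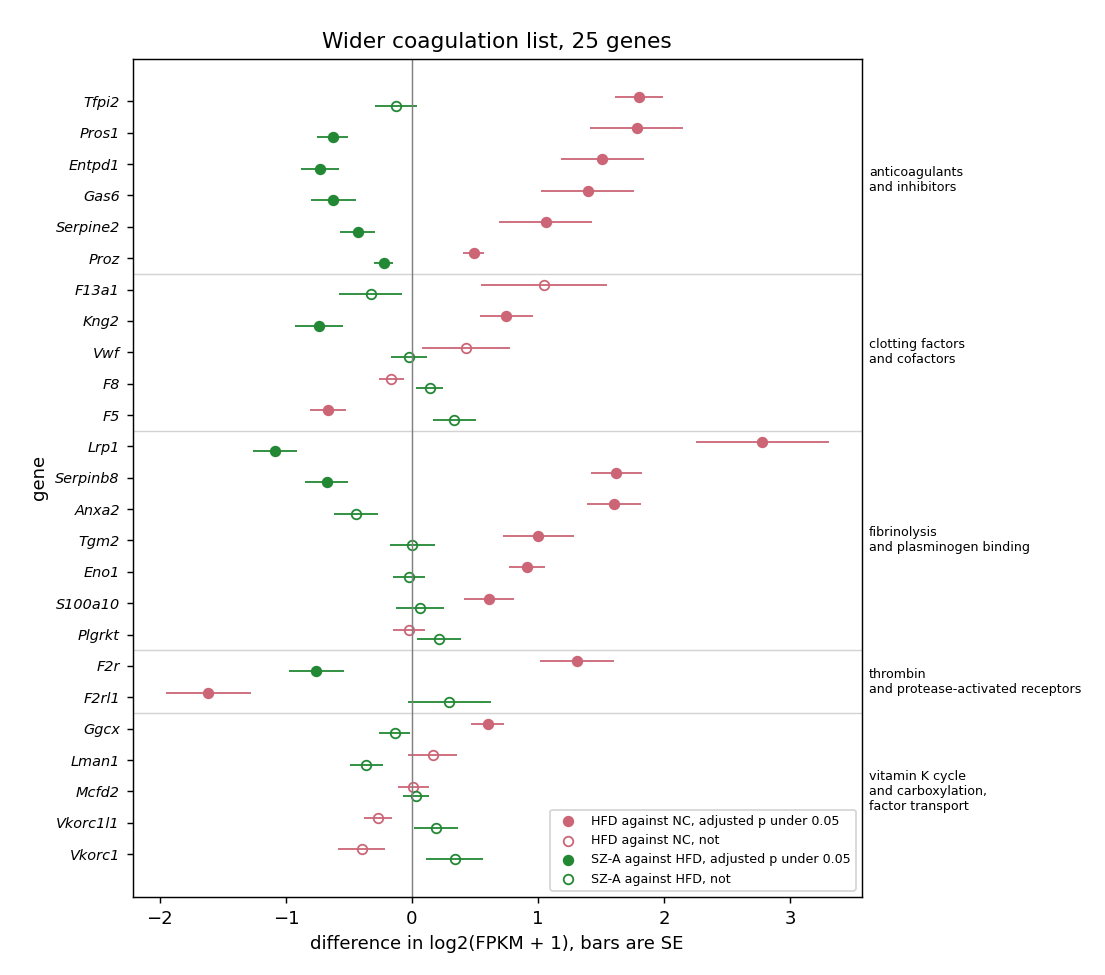
Differences in log2(FPKM + 1) for 25 of the 26 genes of the wider list by role, with SE as bars, for HFD against NC and SZ-A against HFD, filled where the adjusted p was under 0.05. The 6 anticoagulants and inhibitors found in the table are filled to the right for diet and 5 of the 6 to the left for SZ-A, while Tfpi2 stays near 0 (-0.13) for SZ-A.

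The neighbours of F7 within 100 kb that were in the table, Mcf2l, Proz, Pcid2 and Cul4a, are on the same chromosome 8. Proz, which encodes protein Z, lies 25105 bases beyond F7 on the same strand and had means of 0.175 (NC), 0.648 (HFD) and 0.410 FPKM (SZ-A). It was called higher in HFD than NC at 0.49 (SE 0.08) and fell by 0.22 with SZ-A (limma adjusted p = 0.0426). Mcf2l, Pcid2 and Cul4a had means between 4.56 and 15.6 FPKM in the 3 groups, and Pcid2 was at 8.85, 8.77 and 8.81 FPKM. Near Plaur, the potassium channel gene Kcnn4 had means of 0.647, 21.0 and 10.2 FPKM in NC, HFD and SZ-A mice, values named after they were seen.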

How the data were processed

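Messenger RNA of eWAT from 20 mice was sequenced as paired-end reads by the authors, who aligned it to GRCm38 with HISAT2. Counting used featureCounts 1.5.0-p3 according to the submitters' processing notes, and FPKM values were deposited for 14776 genes, each above 0 in every mouse. The labels give 6 NC mice. No batch or date is given in the sources used here.

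Positions and exon lengths came from GENCODE M21, which held 14770 of the genes, and symbols from a separate reference list of gene names. Whole reads were recovered from the deposited FPKM: 95.9% to 96.3% of values under 1000 reads were whole within 0.01 reads. Groups were compared by limma 3.58.1 in R 4.3.3 (lmFit, eBayes with trend) on log2(FPKM + 1), keeping genes whose average across the compared mice reached 0.1 FPKM, with Benjamini-Hochberg adjustment over all genes tested. A gene was called at an adjusted p under 0.05. The steps were tested on simulated data. Intervals are 95%, and p-values measure the spread between mice.

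The members and lists were chosen with earlier results of these data known. Named from the wider list were up to 8 called genes with the largest differences in HFD against NC and in SZ-A against HFD, and for likeness 5 genes for F7 and 2 for each other member. The values of a single gene of the wider list, which enters its counts, are not reported here. Alternatives were pseudocounts, filters, all 3 groups in the fit, median-ratio scaling, voom on recovered reads, array quality weights, a replicate block, a fold threshold and leaving out each mouse. The study's methods state that threshold as a log2 fold change and its results as a fold change, so both forms were tried, the latter after seeing the data. Tables and plots were made with Python 3.11.15 and matplotlib 3.10.9.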

Additional observations from a re-analysis of the deposited data

Results flagged for a closer look

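In 60 pairs of a gene and a group, the gap between the highest or lowest mouse and its neighbour was compared with Dixon's critical value, and 7 values, in 6 mice, lay beyond it. Chance gives about 1 in 20 for independent, normally distributed values. That was not checked for these FPKM, so the 7 values are not read as an excess. Adgrg2, which holds some of them, also served above to single out NC mouse 6 and SZ-A mouse 2. F7 was at 129 FPKM in SZ-A mouse 5, above each of the other 6 SZ-A mice, and the same mouse held the lowest F2r, at 1.85 FPKM. Plau was at 93.8 FPKM in SZ-A mouse 7. Adgrg2 was at 420 FPKM in NC mouse 6 and at 103 FPKM in SZ-A mouse 2. Kng2 was at 4.11 FPKM in HFD mouse 1, and Lrp1 was at 102 FPKM in SZ-A mouse 6.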

How the results depend on the processing

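Of 544 alternative values of single members, 496 kept direction and side of the threshold, 17 turned sign, 15 passed the threshold only there and 16 missed it only there. These values include HFD against NC, the contrast that selected the list, and were not split by contrast. The tally is therefore a description and no test of the members. Contrasts with NC rest on 6 mice, among them NC mouse 6. F7 had fewer than 10 reads in 3 NC mice, so its fold change depends on the pseudocount, and its levels within NC are imprecise. Among mice on the diet F7 had at least 326 reads. Some called genes of the wider list had fewer, with 15 to 32 reads for Kng2 and 29 to 49 for Proz in SZ-A mice. How far depth limited these comparisons was not tested.
With a log2 fold change above 1.5 as well, 3 members, a description only, and 7 of the wider list passed in HFD against NC, 0 and 0 in SZ-A against HFD, and 1 of the wider list in SZ-A against NC. A linear fold change above 1.5, tried after seeing the data, left 1 member in SZ-A against HFD, Plau, and 7 of the wider list. With all 3 groups in the fit, 2 of the wider list were called in SZ-A against HFD and 11 in SZ-A against NC. Array quality weights gave 5 members in SZ-A against HFD, and 4 members and 11 of the wider list in SZ-A against NC. Pseudocounts of 0.1 and 0.01 and voom each left 1 member in SZ-A against NC. Leaving out each mouse gave 16 to 18 of the wider list in HFD against NC, 2 to 5 members and 7 to 10 of that list in SZ-A against HFD (5 members without SZ-A mouse 5), and 1 to 3 and 3 to 8 in SZ-A against NC (8 without NC mouse 3). Without NC mouse 1, 2 or 5, or SZ-A mouse 3, 6 or 7, 1 member was called in SZ-A against NC. The share of all genes called was taken only for the main fit, the log2 fold change above 1.5 and the fit without NC mouse 6. For every other setting, the replicate block included, the counts therefore cannot tell a change of these genes from a change over all genes.
Not every pair of mice with the same number correlated above 0.1, and the main comparisons were not paired by number. Whether mice with the same number shared a batch or a step cannot be told from these correlations. The correlations ran from -0.28 to 0.30 in HFD against NC, from -0.39 to 0.37 in SZ-A against HFD and from -0.41 to 0.58 in SZ-A against NC, and the highest of each was for number 4. The replicate block gave 5 members in SZ-A against HFD, and 1 member and 1 of the wider list in SZ-A against NC, where Tfpi came to 0.038.
Leaving out single mice moved Thbd from -0.11 to 0.94 in HFD against NC and from -0.24 to 0.81 in SZ-A against NC. Signs turned as follows, for differences that did not pass the test. Thbd came to -0.030 (array quality weights) and -0.11 (without NC mouse 6) in HFD against NC, and to 0.018 (array quality weights) in SZ-A against HFD. In SZ-A against NC it came to -0.019 with array quality weights, -0.24 without NC mouse 6 and -0.23 without NC mouse 6 and SZ-A mouse 2, an alternative chosen after seeing the data. Tfpi in SZ-A against NC came to 0.22 and 0.30 with pseudocounts of 0.1 and 0.01 and 0.16 with voom, and ran from -0.40 to 0.18 when single mice were left out. Plau in SZ-A against NC ran from -0.75 to 0.0056 over all alternatives, and was at -0.59 without NC mouse 6 and at 0.0056 without NC mouse 1. The causes were not tested.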
